A study of Danio rerio with 25 samples.

Results

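The comparison described here is that of microRNA hairpins in the skin of male zebrafish at 12 months against 6 months of age. All 346 hairpin rows of the count table were taken, and the 5 libraries labelled 1 year were set against the 5 labelled 6 months, 10 of the 25 libraries of the series. The series asks how skin microRNAs differ among ages of 6, 12, 24, 36 and 42 months, with 5 libraries at each. The 6-month fish carried the strain label AB JxT\xFC (as the labels write it) with no transgene, and so did the 24-month fish. The 12-month fish carried that label with Tg(flk:mCherry), a reporter named for flk, a receptor gene of vascular endothelium. The 36-month label added Tg(pu.1:GFP) and the 42-month label added Tg(wt1a:GFP). Between 12 and 6 months, age and strain label therefore cannot be told apart. The labels do not say in words that each library is a separate fish, so p-values measure the spread between libraries. Replicate numbers follow the order of the sample records and carry no meaning.

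MicroRNAs are short RNAs cut from hairpin precursors, and they lower the translation and stability of messenger RNAs that match their seed. In vertebrate skin, miR-203 and miR-205 are abundant in keratinocytes, where miR-203 in the mouse limits the growth of basal cells, and the miR-200 family maintains epithelial identity. Skin also contains nerve endings, vessels, blood, pigment cells, bone and scale tissue and often a trace of underlying muscle, each with microRNAs of its own. The counts are per hairpin, so the mature strands of a hairpin are not told apart, and fewer cells of a type and less RNA per cell cannot be told apart in these bulk libraries.

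The libraries of both ages were alike in size. Total counts ranged from 2358752 to 5196081 at 6 months (mean 3786534 ± 1137150, SD, n = 5) and from 2199520 to 5206505 at 12 months (3546025 ± 1316280, n = 5), with a two-sided exact permutation p of 0.7143 and a smallest possible p of 0.00794. Hairpins with at least 1 count averaged 278 at 6 and 278.4 at 12 months (exact permutation p = 0.9048, n = 5 each). A library at 12 months, replicate 1, stood apart. Its hairpins lay a median of 0.437 log2 units from the median of the other libraries of its age, against 0.143 to 0.268 in the other 9 libraries. Replicate 2 at 12 months lay farthest out on the first principal component (11.7, against -4.99 to 5.24 in the rest). Over 237 hairpins with a mean of at least 10 CPM (counts scaled to the total of the library times its TMM factor), the median SD of log2 level was 0.241 at 6 months and 0.310 at 12 months. Without replicate 1 the 12-month value was 0.224. The epidermal microRNAs were present in all 10 libraries at high level: their list (miR-200, miR-141, miR-429, miR-203 and miR-205) summed to 111721 ± 16177 CPM at 6 months and 100634 ± 24176 at 12 months (SD, n = 5 each).

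**Figure D1:**
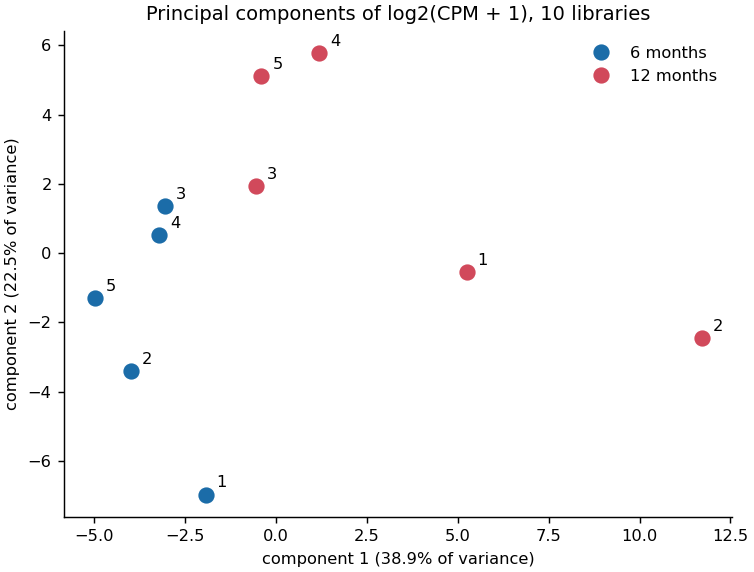
First 2 principal components of log2(CPM + 1) for the 10 libraries, with the share of variance on each axis (38.9% and 22.5%) and the replicate number beside each point (blue 6 months, red 12 months). The 6-month libraries lie to the left, and 12 months replicates 1 and 2 lie at 5.24 and 11.7 on the first component, away from the other 12-month libraries.

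Few microRNA hairpins passed the threshold for a difference between 6 and 12 months. Of 258 hairpins that passed the filter on low counts, 10 were called (3.88% of those tested, edgeR quasi-likelihood test, Benjamini-Hochberg adjusted p under 0.05). miR-31 and 2 copies of miR-132 were higher at 12 months (3 hairpins, 1.16%). miR-30a, miR-103, miR-455-2, miR-462, miR-731, miR-1388 and miR-19d were lower (7 hairpins, 2.71%). At an unadjusted p under 0.05 there were 69 (26.7%), the share to set beside the counts of hairpins at that threshold given below for lists. The median log2 change of all 258 was -0.03. Of the 248 not called, 177 had a 95% interval within 1 log2 unit of 0 and 71 had an interval that reached beyond it. The CPM ranges of the ages did not overlap for 33 hairpins (12.8%), 16 higher (6.2%) and 17 lower (6.59%) at 12 months, and for 6 of the 10 called. With copies of a name summed, 3 of 190 names were called (1.58%), miR-31, miR-132 and miR-212, each higher. Leaving out each of the 10 libraries of these ages in turn lowered the count of 10 calls to between 1 and 6, except for 6 months replicate 3, without which it was 12. miR-31 was called in all 10 fits that left out a library, and each of the other called hairpins in 1 to 3 of them. Other planned settings gave 1 to 21 calls. Leaving out 42 months replicate 5, a choice made after seeing the data, gave 30.

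**Figure D2:**
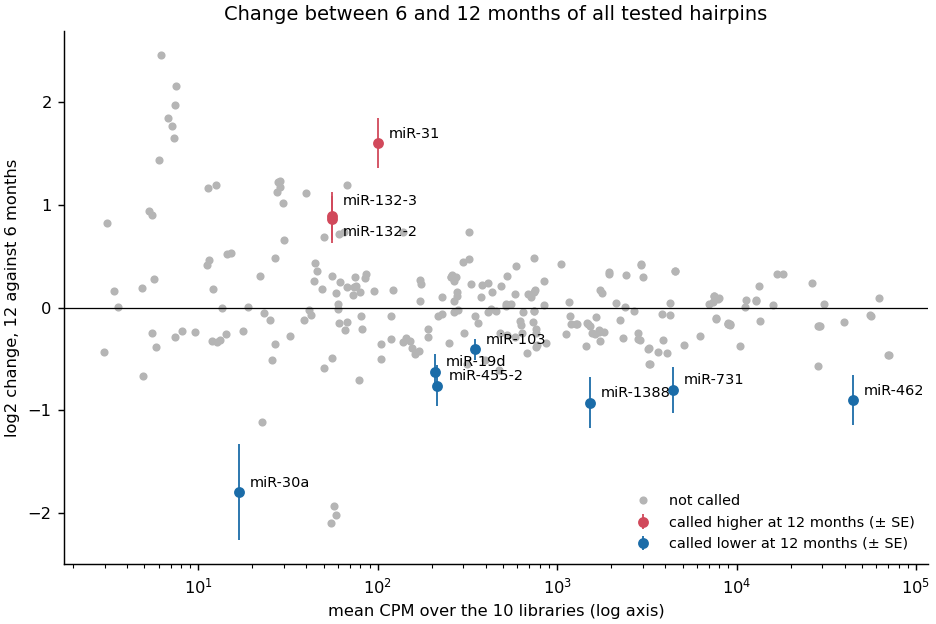
Log2 change at 12 against 6 months of each tested hairpin (y axis) against its mean CPM over the 10 libraries (x axis, log), with the called hairpins named and shown with their SE. The called hairpins spread from 16.9 CPM (miR-30a) to 44431 CPM (miR-462), and several uncalled hairpins of low level, among them copies of miR-124, have changes at least as large.

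miR-31 had the smallest p of all hairpins tested. In the mouse and human it is raised in keratinocytes of wounds and of psoriasis, and it takes part in the hair cycle. Its levels at 6 months were 55.5, 40.9, 54.4, 37.4 and 60.1 CPM. At 12 months they were 90.4, 185.5, 159.3, 181.1 and 137.2 CPM. Every 12-month library was above every 6-month library, and the lowest of them was replicate 1, the library that stood apart. The mean rose from 49.7 ± 9.89 to 151 ± 38.8 CPM (SD, n = 5 each), a log2 change of 1.60 ± 0.24 (SE; edgeR, adjusted p = 2.0e-04; 95% interval 1.11 to 2.10). At 24 months, in fish with the 6-month strain label, the level ran from 132.6 to 224.1 CPM (edgeR log2 change against 6 months 1.75, which shares the 6-month libraries). It was 117.9 to 210.4 CPM at 36 and 152.6 to 343.7 CPM at 42 months, so the levels of the 4 older ages overlapped. The level at 12 months set against the mean of 6 and 24 months was not called (log2 0.73, adjusted p = 0.2324 by edgeR). With only the ages compared in the fit, it was called (log2 0.70, adjusted p = 0.0320 by edgeR).

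miR-132 and miR-212 are cut from 1 shared transcript in mammals, which the factor CREB induces in rodent neurons. In human wounds miR-132 is raised in keratinocytes. The 2 called hairpins miR-132-2 and miR-132-3 held nearly the same counts in each library and are not independent measurements. Summed over its copies, miR-132 was at 94.8, 67.0, 143.3, 84.5 and 65.5 CPM at 6 months and at 162.8, 113.2, 141.4, 193.1 and 198.9 CPM at 12 months. The ranges overlapped through 6 months replicate 3, which was above 12 months replicates 2 and 3. The summed change was 0.92 ± 0.23 on the log2 scale (SE; edgeR, adjusted p = 0.03515). miR-212 was at 32.4 to 45.0 CPM at 6 months and at 39.9 to 92.5 CPM at 12 months. It rose by 0.77 ± 0.19 on the log2 scale in the fit on summed names (edgeR, adjusted p = 0.03515), while its log2 change of 0.68 ± 0.20 as a hairpin was not called (edgeR, adjusted p = 0.056). The 2 fits differ in scaling and in the number of features tested. At 24 months miR-132 was at 148.1 to 195.8 CPM and miR-212 at 53.2 to 65.6 CPM. Leaving out a single library kept each miR-132 hairpin called in 2 of 10 fits, the log2 change staying between 0.74 and 1.13 over both. With only the libraries of the 2 ages compared in the edgeR fit, or with upper-quartile scaling, 0 hairpins of miR-132 and miR-212 were called. DESeq2 and limma-voom each called miR-132-2, miR-132-3 and the miR-212 hairpin (for miR-212, adjusted p = 0.00792 by DESeq2 and 0.0436 by limma-voom). The remaining copy of miR-132 had the smallest log2 change of these hairpins, 0.53, and was not called by edgeR.

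miR-462 and miR-731 form a fish cluster that is related to miR-191 and miR-425 of mammals and that virus, interferon and low oxygen induce in fish cells. miR-462 was the most abundant hairpin called. At 6 months it was at 76632, 47811, 51338, 54806 and 58745 CPM. At 12 months it was at 46525, 25596, 25588, 20957 and 36317 CPM. Every 12-month library was below every 6-month library, with replicate 1 just below the lowest of them. The mean fell from 57866 ± 11248 to 30997 ± 10352 CPM (SD, n = 5 each), and the log2 change was -0.90 ± 0.24 (SE; edgeR, adjusted p = 0.0379). As a share of all counts it went from 5.57% ± 0.868 to 3.27% ± 0.840.

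miR-731, its cluster partner, fell too. It was at 6965, 4552, 5173, 5610 and 5844 CPM at 6 months and at 4243, 2777, 2874, 2318 and 3974 CPM at 12 months. These ranges did not overlap, and the log2 change was -0.80 ± 0.23 (SE; edgeR, adjusted p = 0.045). The ratio of miR-462 to miR-731 lay between 9.77 and 11 in the 6-month libraries and between 8.90 and 10.97 in the 12-month libraries. Levels of miR-462 at the older ages ran from 17493 to 36334 CPM at 24 months, from 35553 to 54366 CPM at 36 months and from 24899 to 59143 CPM at 42 months. The 12-month range overlapped each of them, and the 36- and 42-month ranges also reached that of 6 months. Neither was called with copies of other names summed (edgeR, log2 -0.80 and adjusted p = 0.1144 for miR-462, log2 -0.70 and adjusted p = 0.1525 for miR-731).

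miR-1388, a fish microRNA, was at 2422, 2126, 1767, 1995 and 1687 CPM at 6 months. At 12 months it was at 1487, 904, 793, 1025 and 1062 CPM. The ranges did not overlap, and replicate 1 was again the 12-month library nearest to the 6-month level. Its log2 change was -0.92 ± 0.25 (SE; edgeR, adjusted p = 0.0379). Levels were 551 to 1257 CPM at 24, 415 to 846 CPM at 36 and 344 to 887 CPM at 42 months, all below the 6-month range.

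miR-455 is encoded within a collagen gene and acts in cartilage in the mouse and zebrafish. miR-455-2 was at 297.4, 284.3, 222.1, 278.5 and 269.7 CPM at 6 months and at 216.1, 120.1, 138.7, 153.2 and 171.3 CPM at 12 months. Its ranges did not overlap, though 12 months replicate 1 lay close under the lowest 6-month library. The log2 change was -0.76 ± 0.20 (SE; edgeR, adjusted p = 0.0379), and at 24 months the level was lower still, 83.3 to 122.1 CPM. Summed with its other copy, which held 1.57 to 2.85 times as many counts, miR-455 was at 715 to 1077 CPM at 6 and 412 to 653 CPM at 12 months. The sum was not called (edgeR, log2 -0.56, adjusted p = 0.1144). Without 42 months replicate 5, a choice made after seeing the data, it was called (edgeR, log2 -0.56, adjusted p = 0.0397). The other copy, miR-455-1, was called by DESeq2 (log2 -0.60, adjusted p = 0.0392) and not by limma-voom. miR-140, the other microRNA of the cartilage list, had a log2 change of 0.14 ± 0.29 (adjusted p = 0.8224, edgeR).

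miR-103, which in the mouse affects insulin sensitivity of liver and fat, showed the smallest change of the called hairpins and a narrow spread. It was at 408.1, 406.0, 342.9, 398.7 and 427.3 CPM at 6 months and at 329.0, 295.9, 293.8, 284.4 and 293.0 CPM at 12 months. The ranges did not overlap, and replicate 1 was the highest 12-month library. The log2 change was -0.41 ± 0.11 (SE; edgeR, adjusted p = 0.0379). Its relative miR-107a was not called (log2 -0.35 ± 0.19, adjusted p = 0.2632 by edgeR). miR-19d belongs to the miR-17-92 family, which promotes cell growth in mammals. It was at 310.2, 245.9, 206.2, 246.3 and 249.3 CPM at 6 months and at 229.7, 137.9, 149.0, 151.7 and 148.7 CPM at 12 months. Only 12 months replicate 1 reached into the 6-month range, and the log2 change was -0.62 ± 0.18 (SE; edgeR, adjusted p = 0.045). None of the other 16 tested hairpins of the family was called by edgeR, and the median of the 17 was -0.23. Of the 17, 5 had an unadjusted p under 0.05 by edgeR, where 69 of all 258 tested did (26.7%). DESeq2 and limma-voom also called miR-17a-1 (log2 -0.33 and -0.36, adjusted p = 0.0223 and 0.0436) and miR-93 (log2 -0.38 and -0.40, adjusted p = 0.0117 and 0.0436).

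miR-30a had the largest change and the fewest counts of those called. It was at 28.0, 24.7, 20.2, 3.83 and 53.9 CPM at 6 months, from 17 to 269 counts. At 12 months it was at 9.29, 3.38, 9.50, 9.79 and 6.10 CPM, from 16 to 40 counts. The 6-month libraries spread widely, and replicate 4 lay within the 12-month range. The log2 change was -1.79 ± 0.46 (SE; edgeR, adjusted p = 0.0379; 95% interval -2.75 to -0.84). DESeq2 called miR-30a too (adjusted p = 0.00792), while limma-voom, and edgeR with only the ages compared, did not. At 24 months the level was 5.49 to 9.89 CPM. The 4 other tested members of the miR-30 family were not called by edgeR, DESeq2 or limma-voom, and miR-30d, the most abundant, was at 6928 ± 498 CPM at 6 and 7111 ± 2056 CPM at 12 months (SD, n = 5 each).

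**Figure D3:**
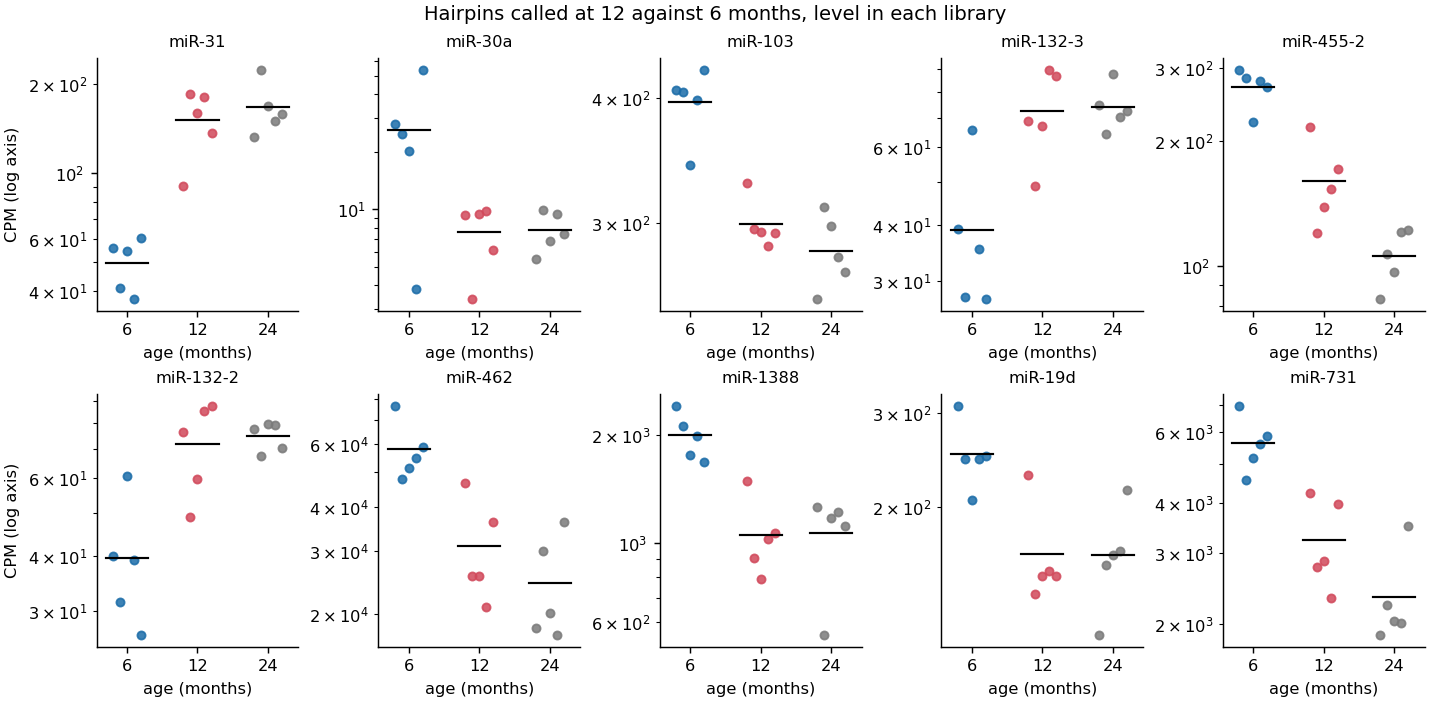
CPM (log axis) of each called hairpin in every library at 6, 12 and 24 months of age, 1 point per library, with a line at the mean. The 6- and 12-month points do not overlap for miR-31, miR-103, miR-455-2, miR-462, miR-1388 and miR-731, and the 24-month libraries carry the strain label of 6 months.

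Several microRNAs of neurons and glia had higher levels at 12 than at 6 months without being called by edgeR. The list held miR-9 and miR-124, which act in neural progenitors and neurons, and miR-128, miR-129, miR-137, miR-138, miR-153, miR-218 and miR-219, the last acting in myelinating glia. None of its 26 tested hairpins was called by edgeR (16 had an unadjusted p under 0.05). Of the 26, 24 had a positive log2 change, and the median was 1.12 against -0.03 over all tested. Many of them are copies of miR-124, miR-9 or miR-129, which weigh on that median. With copies summed, 12 names were tested, and their median was 0.51 against 0.01 over all names. By edgeR 5 of the 12 names had an unadjusted p under 0.05, and 2 had a negative change. The share of all names under that threshold was not counted, so the 5 cannot be set beside it. On the same libraries DESeq2 called miR-124-2 (log2 2.46, adjusted p = 0.0291) and limma-voom called miR-124-4 (log2 2.12, adjusted p = 0.0436). The following names were picked out after their values were seen. miR-124, summed over its 6 copies, was at 15.5, 16.3, 23.7, 18.03 and 14.0 CPM at 6 months (41 to 80 counts). At 12 months it was at 43.0, 44.2, 44.9, 84.9 and 117.6 CPM (88 to 675 counts). Every 12-month library was above every 6-month library, and above the 24-month range of 23.1 to 38.4 CPM. miR-9, over its 7 copies, was at 94.8 to 217.7 CPM at 6 months, 208.3 to 572.0 at 12 months and 140.3 to 187.4 at 24 months. Its 6- and 12-month ranges overlapped by 1 library, 12 months replicate 2.

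Whether these neural changes met edgeR's threshold depended on a library of another age, beside the test used. All 25 libraries share an estimate of the spread, and 42 months replicate 5 held 657.8 CPM of miR-124 against 9.77 to 30.8 in the other 42-month libraries, and 997.6 CPM of miR-9 against 88.0 to 220.4. With it, the log2 change of summed miR-124 was 2.02 ± 0.78 (SE; edgeR, adjusted p = 0.1555), and that of miR-9 was 1.25 ± 0.47 (edgeR, adjusted p = 0.1555). Without it, a choice made after seeing the data, the changes stayed at 2.02 and 1.25 while the SE fell to 0.31 and 0.29 (edgeR, adjusted p = 1.5e-04 and 0.0134). miR-129 was then called as well (log2 1.28 ± 0.36, adjusted p = 0.0397 by edgeR), and miR-219 was not (log2 1.13 ± 0.36, adjusted p = 0.0801 by edgeR). Summed miR-129 was at 9.21 to 21.7 CPM at 6 months. At 12 months it was at 56.7, 19.0, 19.4, 22.3 and 48.1 CPM, so the ranges overlapped. By single hairpins, leaving out 42 months replicate 5 raised the calls from 10 to 30, 19 higher and 11 lower. The 20 added were the 6 copies of miR-124, the 7 of miR-9, both of miR-129, miR-212, miR-203b, miR-454a, miR-455-1 and miR-93. Fitting the 10 libraries of the 2 ages alone gave 21 calls, among them 6 copies of miR-124 and 3 of miR-9.

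Other members of the neural list had smaller changes. The log2 change was 0.10 ± 0.14 for miR-128-1, the most abundant member, 0.31 ± 0.25 for miR-138 and -0.21 ± 0.13 for miR-218a-1. miR-137, like miR-9 and miR-124 a microRNA of neurons, had few counts. Its 12-month range of 2.44 to 5.23 CPM lay within its 6-month range of 1.96 to 7.56 CPM. The summed level of the whole list ran from 1625 to 1969 CPM at 6 months and from 1836 to 2879 CPM at 12 months. Levels of miR-124 at 36 months, under another reporter label, were 39.8 to 84.8 CPM. The amount of nerve tissue in each piece of skin was not measured, and its part in these values was not tested.

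**Figure D4:**
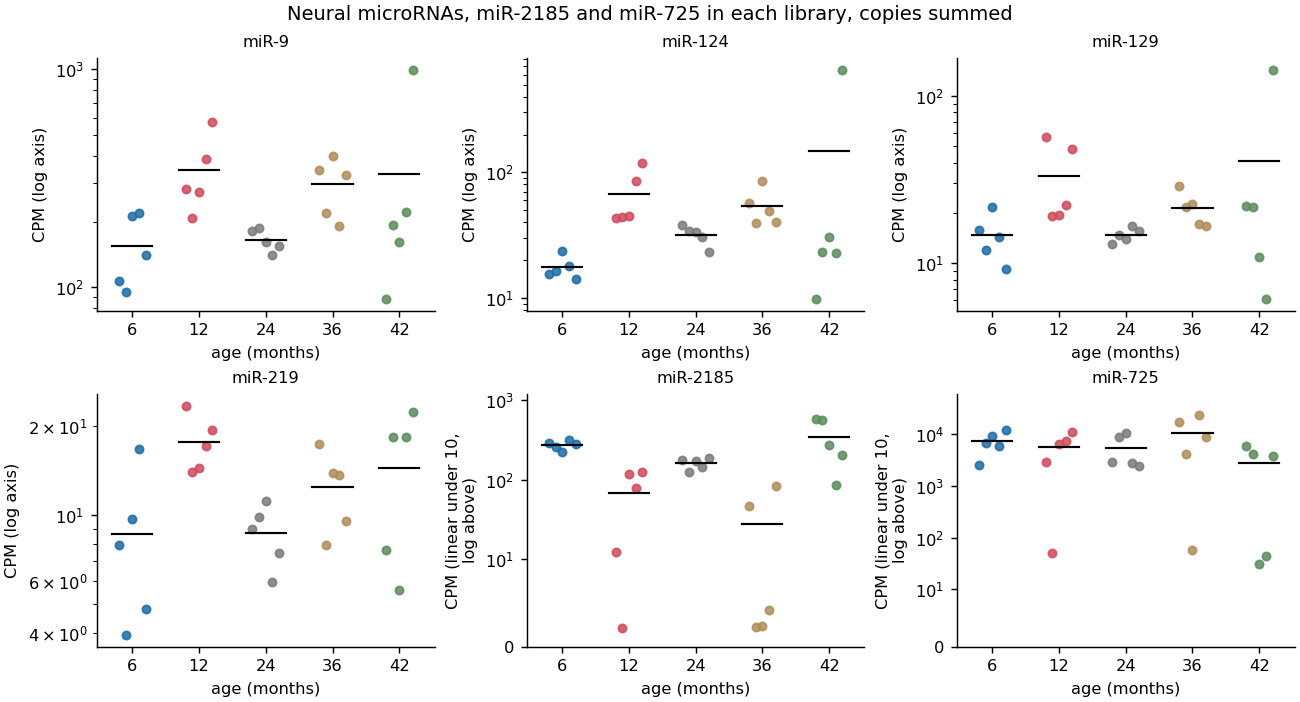
CPM with copies summed in every library at 5 ages for miR-9, miR-124, miR-129, miR-219 (log axis), miR-2185 and miR-725 (axis linear under 10 CPM and log above), 1 point per library and a line at the mean. miR-124 lies at 43.0 to 117.6 CPM at 12 months against 14.0 to 23.7 at 6 months, and 1 library at 42 months reaches 657.8.

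A different pattern was seen for miR-2185, which was also picked out after its values were seen. Summed over 3 copies it was at 286.4, 256.8, 224.0, 315.3 and 284.9 CPM at 6 months and at 12.2, 2.12, 117.8, 79.1 and 124.6 CPM at 12 months. All 12-month libraries were below all 6-month libraries, and they differed widely among themselves. The log2 change was -1.95 ± 0.83 (SE; edgeR, adjusted p = 0.1861), and limma-voom called its 3 hairpins. Levels were 126.0 to 186.1 CPM at 24, 2.26 to 82.2 CPM at 36 and 86.7 to 579 CPM at 42 months. miR-725 was at 50.6 CPM in 12 months replicate 2 and at 2881 to 10968 CPM in the other 12-month libraries, against 2511 to 12248 CPM at 6 months.

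Comparing 12 months with the mean of 6 and 24 months, which brackets it with fish of the other strain label on both sides, called 0 of 258 hairpins (0%; edgeR, 33 at an unadjusted p under 0.05, or 12.8%). DESeq2 and limma-voom also called 0. With only the ages compared, edgeR called 17 hairpins, 16 higher and 1 lower at 12 months than that mean. The direct comparison of 24 with 6 months, within a single strain label, called 65 hairpins (25.2%), 23 higher (8.91%) and 42 lower (16.3%). It shares the 6-month libraries with the comparison of 12 with 6 months. Without 42 months replicate 5, 12 months against that mean called 17 hairpins, all higher at 12 months than the mean. They were miR-31, miR-219-3 and the copies of miR-9, miR-124 and miR-129. With copies summed and that library left out, 4 names were called, miR-31, miR-9, miR-124 and miR-129. A call against the mean need not place 12 months above both ages. miR-31 was at 90.4 to 185.5 CPM at 12 months and at 132.6 to 224.1 CPM at 24 months.

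The epidermal microRNAs were not called by edgeR. Of 9 tested hairpins, 5 had an unadjusted p under 0.05 and 8 had a negative log2 change, and the median was -0.32. In the fit on summed names, which differs in scaling, 1 of the 9 names had an unadjusted p under 0.05 by edgeR. There 8 were negative, and the median was -0.22. miR-203b, which was picked out after its values were seen, was at 29193 to 39223 CPM at 6 and 16992 to 25919 CPM at 12 months, ranges that did not overlap (log2 -0.57 ± 0.17, adjusted p = 0.066 by edgeR). It was called by DESeq2 (adjusted p = 0.0392) and limma-voom (adjusted p = 0.0436), and by edgeR with only the ages compared (adjusted p = 0.0347) or without 42 months replicate 5 (adjusted p = 0.0322). miR-205 was at 60495 ± 15086 and 64360 ± 23296 CPM (SD, n = 5 each; log2 0.09 ± 0.36). The values for miR-200a (log2 -0.44 ± 0.17) and miR-141 (log2 -0.43 ± 0.18) lay between these.

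Of the 10 hairpins of highest mean CPM, only miR-462, described above, was called by edgeR. miR-181a, known for its role in lymphocyte development in the mouse, took 15.6% ± 1.57 of counts at 6 and 12.5% ± 1.83 at 12 months over both copies (SD, n = 5 each). Its copy miR-181a-1 had a log2 change of -0.46 ± 0.18 (edgeR, adjusted p = 0.1339). Among the 12-month libraries replicate 1 was highest, at 82828 CPM. All 5 hairpins of the miR-181 list had negative changes, with a median of -0.46. None was called by edgeR, DESeq2 or limma-voom, and 4 had an unadjusted p under 0.05 by edgeR. miR-181a and miR-181b have 2 copies each with nearly the same totals, which are not independent measurements. With copies summed, 0 of 3 names had an unadjusted p under 0.05 by edgeR, and the median was -0.36. miR-10b, encoded among the Hox genes, took 10.96% ± 1.24 and 11.5% ± 1.36 of counts. For miR-10b-1 the 95% interval of the log2 change ran from -0.41 to 0.26, for miR-22a from -0.41 to 0.14 and for miR-26b from -0.25 to 0.32. The interval was -0.69 to 0.32 for miR-21-1, a microRNA raised by inflammation and wounding in mammals.

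Marker microRNAs of endothelium, muscle, blood and pigment cells gave 0 calls by edgeR, DESeq2 and limma-voom. By edgeR, 4 hairpins had an unadjusted p under 0.05, where 69 of all 258 tested did (26.7%). These were 2 of 2 of pigment, which are copies of miR-204, 1 of 8 of muscle and 1 of 4 of leukocytes. The endothelial and erythroid lists, with 2 tested hairpins each, had 0. miR-126, expressed in vascular endothelium, the tissue of the flk reporter, had a log2 change of -0.06 ± 0.24 for miR-126a (95% interval -0.55 to 0.43). Its list summed to 6279 ± 1534 CPM at 6 and 6126 ± 1816 CPM at 12 months (SD, n = 5 each). The muscle list of miR-1, miR-133 and miR-206 summed to 8746 ± 2564 and 11273 ± 3962 CPM, with 8 of 8 hairpins positive and a median of 0.34. The erythroid list of miR-144 and miR-451 summed to 2305 ± 633 and 1987 ± 606 CPM (median -0.04, positive with library size alone or without 12 months replicate 1). The leukocyte list of miR-223, miR-142 and miR-150 summed to 3859 ± 613 and 3187 ± 486 CPM (median -0.16). miR-204, the one member of the pigment list in the table, took 2.96% ± 0.437 of counts at 6 and 4.15% ± 0.542 at 12 months, and miR-204-2 had a log2 change of 0.33 ± 0.15 (edgeR, adjusted p = 0.1562). With library size as the only scaling, both miR-204 hairpins were called higher (edgeR, log2 0.49 and adjusted p = 0.0341 each).

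Among families, 16 tested hairpins of miR-23, miR-24 and miR-27, which are transcribed together, had a median of 0.30, with 15 positive and 0 called by edgeR (9 with an unadjusted p under 0.05). DESeq2 called miR-23a-1, miR-23a-2 and miR-27a (adjusted p = 0.0403, 0.0392 and 0.0345), and edgeR with library size alone called 5 of the 16, all higher. Within it miR-23a-2 was at 210.1 to 247.1 CPM at 6 and 249.0 to 320.2 CPM at 12 months, ranges that did not overlap (log2 0.30 ± 0.10, adjusted p = 0.0988 by edgeR). The 3 hairpins of miR-29, which targets collagen messages in mammals, were positive with a median of 0.71. By edgeR, DESeq2 or limma-voom 0 were called (0 at an unadjusted p under 0.05 by edgeR). With copies summed, 2 of 2 names had an unadjusted p under 0.05 by edgeR, a share not counted over all names. miR-29a had a log2 change of 0.31, and the others are copies of miR-29b. Summed, miR-29b was at 77.8 to 110.5 CPM at 6 months. At 12 months it was at 360.3 CPM in replicate 3 and at 76.3 to 121.4 CPM in the other libraries. The list of miR-15 and miR-16, which slow the cell cycle in human cells, also held miR-457. Its 9 tested hairpins were negative with a median of -0.33, and 0 were called by edgeR (5 with an unadjusted p under 0.05) or limma-voom. With copies summed, 1 of 8 names had an unadjusted p under 0.05 by edgeR, and the median was -0.23. DESeq2 called miR-15a-2 (log2 -0.31, adjusted p = 0.0291). All 18 let-7 hairpins were negative, with a median of -0.16, where 135 of all 258 tested were negative. With copies summed, 9 of 10 let-7 names were negative, and 0 had an unadjusted p under 0.05 by edgeR. The hairpin median was -0.017 without 12 months replicate 1. With library size as the only scaling it turned positive (0.0015), where the median of all tested moved to 0.13. Of the 18, 0 were called by edgeR (3 with an unadjusted p under 0.05), DESeq2 or limma-voom. The medians of the miR-183 cluster (-0.21), miR-130, miR-301 and miR-454 (-0.17), miR-148 and miR-152 (-0.24), miR-34 (-0.23, 1 tested hairpin), inflammation (-0.18) and liver, gut and pancreas (-0.25) lists were also below 0. The liver, gut and pancreas list summed to 6465 ± 1940 CPM at 6 and 6500 ± 1546 CPM at 12 months (SD, n = 5 each). Its most abundant member, miR-192, had a positive log2 change of 0.29 that was not called. The medians of miR-26 (0.07), miR-221 and miR-222 (0.05), miR-101 (0.16) and the Hox cluster (0.06) were above 0. That of the mesenchymal list was -0.03, turning positive with upper-quartile scaling, library size alone or without 12 months replicate 1. The median of miR-125, miR-100 and miR-99 was 0.03 and turned to -0.06 without 12 months replicate 1, and to -0.22 without replicates 1 and 2. By edgeR, 0 hairpins of these 12 lists were called (1 had an unadjusted p under 0.05). DESeq2 and limma-voom called miR-454a (log2 -0.44 and -0.46, adjusted p = 0.00811 and 0.0283), and edgeR called it without 42 months replicate 5 (adjusted p = 0.0245). With only the ages compared, edgeR called miR-155 (log2 -0.70, adjusted p = 0.0261). None of the 59 hairpins of miR-430, a microRNA of the early embryo, passed the filter.

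**Figure D5:**
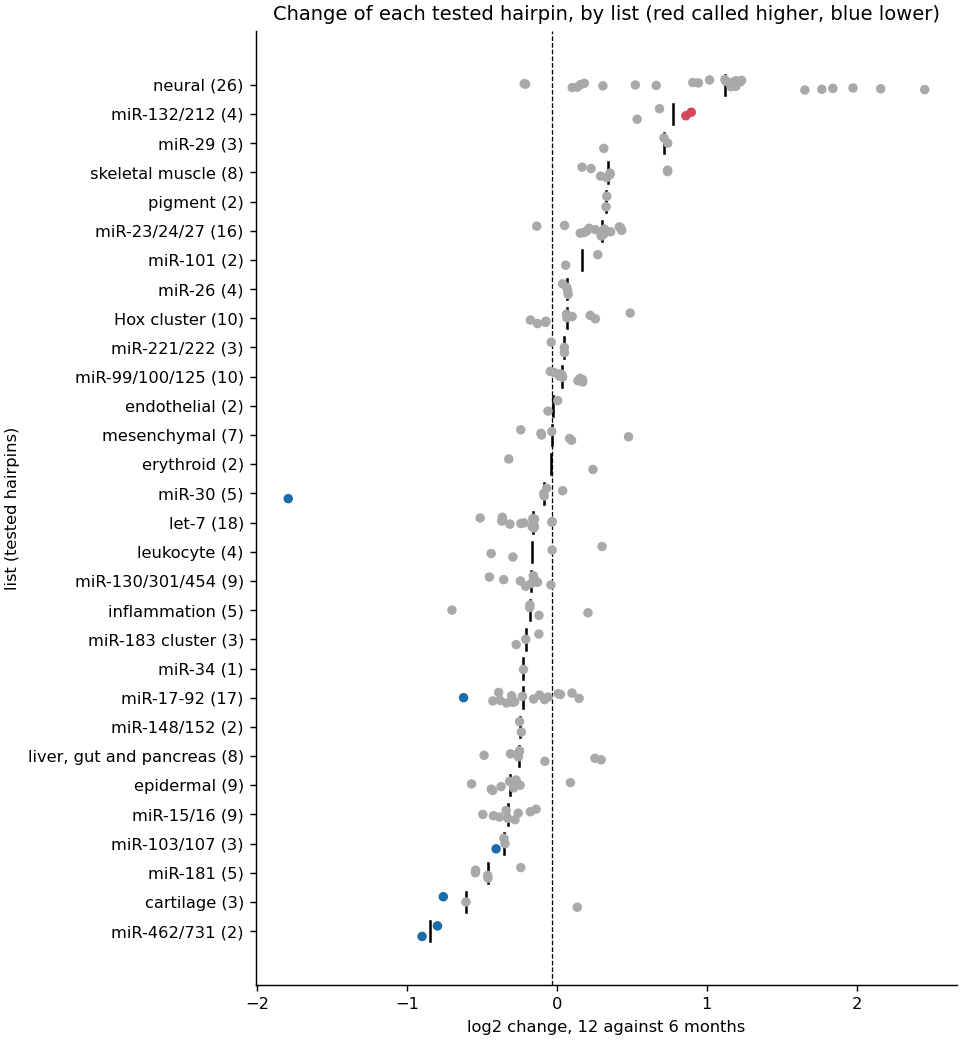
Log2 change at 12 against 6 months of every tested hairpin (points), grouped by list with the number tested in brackets, a bar at each list's median and a dashed line at the median of all tested (-0.03). Red points were called higher and blue points lower. By hairpin, the neural list has the highest median (1.12) with 0 called by edgeR. With copies summed its median is 0.51, below those of miR-132 and miR-212 (0.84) and of miR-29 (0.61).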

How the data were processed

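Small RNA from skin was sequenced, and the authors deposited raw read counts per microRNA hairpin in a single table, which was checked to hold whole numbers with differing library totals (0 columns were left unassigned). Tools named, per the submitters' processing notes, were SAMtools 1.3.1-9, BWA 0.7.12-r1039, Trimmomatic 0.36 and CASAVA 1.8.4, whose roles are not stated. How reads were counted, on which hairpin set and which build is not given in the sources used, so no coordinates are printed. Hairpins are named as in the table, without the species prefix, and a last number marks a genomic copy. Of the 346, 47 had no count in the 10 libraries, and 180 share a name with a copy (115 of those tested). For names with a mean summed count of at least 1000, the split of counts among copies was compared over the 10 libraries. It varied little between libraries in 28 of 31 names (chi-square per degree of freedom under 3), and the exceptions were miR-199, miR-455 and miR-92a. The largest copy total was at most 1.1 times the smallest in 23 of the 31.

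Hairpin counts of all 25 libraries entered edgeR 4.0.16 in R 4.3.3 (TMM, filterByExpr by age with a minimum count of 10, quasi-likelihood F tests), sharing 1 estimate of spread. The Benjamini-Hochberg adjustment ran over the 258 hairpins tested, at a threshold of 0.05. CPM divides each deposited count by the product of library total and TMM factor, on the usual scale. Summed names (217, of which 190 were tested) were fitted with TMM recomputed, while their printed CPM uses the hairpin factors. SE is the log2 change divided by the root of F. The script was tested on simulated data. Alternatives were other scalings and filters, DESeq2 1.42.0, limma-voom (limma 3.58.1), robust estimation, only the ages compared, summed copies and each library left out. Libraries that stood apart were left out as a choice made after the data were seen.

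The hairpins, the 31 lists of microRNAs and the tests were chosen with earlier results of these data known. Hairpins chosen for naming were the 10 of highest mean CPM, up to 15 called in each direction by smallest p (the 5 of smallest p where fewer than 5 were called), the largest called changes with ranges apart, and the most abundant and the called members of each list. Some of the most abundant list members chosen in this way are not printed with values. Other names were chosen after their values were seen. Intervals cover the spread between libraries.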

Additional observations from a re-analysis of the deposited data

Results flagged for a closer look

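Groups of 5 libraries were examined for the named hairpins, some of them copies of 1 name, and for library totals and hairpins detected. Of 94 such groups, 4 held a library whose gap to the nearest other exceeded the critical share of the range (0.71). Chance flags about 1 group in 20. In 3 of these the library was 12 months replicate 1: miR-103 at 329 CPM (284.4 to 295.9 in the others), miR-19d at 229.7 CPM (137.9 to 151.7) and miR-30d at 10790 CPM (6082 to 6286). The fourth was miR-101a at 4789 CPM in 6 months replicate 1 (7391 to 8286). For miR-103 and miR-19d the flagged library was the 12-month library nearest to the 6-month mean, as it was in 7 of the 10 called hairpins.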

How the results depend on the processing

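No paired analysis was possible because replicate numbers only follow the order of the records. miR-31 was called in all 10 planned settings and in all 10 fits that left out 1 library (log2 1.52 to 1.7999). The other 9 called hairpins were called in 5 to 7 of the 9 or 10 settings in which they had a value and in 1 to 3 of the 10 such fits, always with the same sign. The cause was not tested, except where said.

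The 10 calls (3 higher, 7 lower) became 1 (1 and 0) with upper-quartile scaling, 21 (8 and 13) with DESeq2, 18 (5 and 13) with limma-voom, 21 (10 and 11) with only the ages compared and 3 (3 and 0) with copies summed. DESeq2 size factors left 3 lower, and library size alone gave 11 higher and 2 lower, where the median of all tested moved from -0.03 to 0.13. Leaving out 1 library gave 1 to 12 calls, 1 to 3 higher and 0 to 9 lower. Chosen after the data were seen, leaving out 42 months replicate 5 gave 30 (19 and 11), and 6 higher and 2 lower with copies summed. Leaving out 12 months replicates 1 and 2 gave 8 (3 and 5).

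For 12 months against the mean of 6 and 24 months, 0 calls became 17 with only the ages compared or without 42 months replicate 5 (4 with copies summed as well), and stayed at 0 in all 15 fits without 1 library. For 24 against 6 months, upper-quartile scaling gave 25 lower, DESeq2 40 higher and summed copies 23 lower. Leaving out 1 library gave 43 to 76 calls, 10 to 30 higher and 23 to 51 lower.

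Signs reversed only among changes that were not called. With library size alone the log2 change was 0.074 for miR-10b-1, 0.077 for miR-10b-2, 0.0102 for miR-22a and 0.10 for miR-126a. Upper-quartile scaling gave 0.049 and 0.052 for the copies of miR-10b. Summing copies gave 0.0201 for miR-10b and 0.0294 for miR-126a, with or without 42 months replicate 5, and limma-voom gave -0.00297 for miR-92a-1. Without 12 months replicates 1 and 2 it was -0.24 for miR-205, -0.00311 for miR-100-2, -0.28 for miR-92a-1, 0.11 for miR-126a, -0.026 for miR-128-1, -0.20 for miR-30d and -0.021 for miR-222a. Leaving out 1 library gave ranges across 0 of -0.088 to 0.20 for miR-205, -0.023 to 0.16 for miR-26b, -0.12 to 0.13 for miR-92a-1, -0.21 to 0.14 for miR-126a, -0.019 to 0.22 for miR-143-1, -0.16 to 0.40 for miR-140, -0.10 to 0.12 for miR-30d, -0.033 to 0.13 for miR-222a and -0.082 to 0.25 for miR-101a. The library total, 12 minus 6 months, then ran from -655630 to 111880 and hairpins detected, 12 minus 6 months, from -0.75 to 1.25. List medians for let-7, miR-30, mesenchymal, erythroid and endothelial microRNAs changed sign under some scaling. Without 12 months replicate 1, or replicates 1 and 2, so did those of the erythroid, endothelial, mesenchymal and miR-99 lists, and without both also that of miR-221 and miR-222 (-0.021).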
